A study of Arabidopsis thaliana with 36 samples.

Results

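Of 14323 Arabidopsis thaliana genes with a value in all 24 glucose libraries and a mean of at least 5 reads per 1e+06 (RPM), 150 were taken as genes raised by glucose in all 4 genotypes. For each genotype the glucose difference of a gene was its mean log2(RPM + 1) over 3 libraries with glucose minus that over 3 libraries without, less the median of this difference over the 14323 genes. The 150 genes with the largest lowest difference among the 4 genotypes are described here. The glucose differences therefore chose the genes, and they are given below as a description without support from any test. Whole 4-day seedlings were used throughout, with 3 libraries a group, which the series' design text calls biological replicates. In the glucose-TOR experiment the wild type Col-0 and a line named tor, labelled XVE-TOR RNAi (an inducible RNA interference construct against the growth-promoting kinase TOR), were starved of glucose for 4 days in liquid medium, and 15 mM glucose was then added or left out for 2 h. The promoter and any inducer of the construct, and the number of seedlings per library, are not given in the sources used here. In the glucose-HXK1 experiment the wild type Ler and gin2, a mutant of the hexokinase and glucose sensor HXK1, had the same treatment. In the ethylene experiment the medium held 0.5% glucose throughout, and Col-0 was exposed to 10 µM ACC, from which plants make ethylene, with mock-treated seedlings taken at the same times, 2 h and 4 h.

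Plants that have run out of sugar stop growing and live on their reserves, and new glucose restarts growth within hours. The restart draws on ribosome assembly in the nucleolus, on chaperones that fold new protein, on mitochondria, on the enzymes that make amino acids and methyl donors, on nutrient uptake, and on enzymes that loosen and rebuild the cell wall. TOR passes the energy state on to growth, and HXK1 both phosphorylates glucose and signals its presence. ACC is turned into ethylene, which restrains the elongation of seedlings.

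Reads on listed genes, recovered from the steps of the RPM values, came to 16374832 to 21470438 a library in the ethylene experiment, 13301486 to 21897368 in the glucose-TOR experiment and 5637934 to 13596490 in the glucose-HXK1 experiment, there over the genes listed for both lines. TOR (AT1G50030) was listed at 169 to 224 RPM in tor and 95.4 to 120 RPM in Col-0 of the same experiment, that is, the libraries labelled tor had more reads on this gene and not fewer. Whether reads of the RNA interference construct are among them was not tested. The name tor stands below for the libraries that carry that label. HXK1 (AT4G29130) stood at 13.7 to 18.7 RPM in gin2 and 21.7 to 66.2 RPM in Ler. RPM of the glucose-HXK1 libraries summed to 456950 to 870230 over the listed genes rather than to 1e+06, and both Ler libraries numbered 3 stood apart with the lowest sums. Without those 2 libraries the rule chose 146 of the same 150 genes. Markers of green tissue (RBCS1A, CAB1 and LHCB6) summed to at least 9630 RPM in every library. Markers of root hairs (EXPA7, PRP3 and COBL9) summed to 11.3 to 17.5 RPM without and 39.6 to 58.0 RPM with glucose in Col-0, and to 4.47 to 19.2 RPM without and 4.23 to 8.90 RPM with glucose in tor. In bulk seedlings, more cells of a type and more RNA per cell cannot be told apart.

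All 150 genes were called higher with glucose in each genotype, against 35.7% of all genes tested in Col-0, 19.9% in tor, 17.4% in Ler and 18.7% in gin2. Their choice fixes that count, and nothing is read from it. The members' median glucose difference was 2.11 in Col-0, 1.16 in tor, 1.55 in Ler and 1.49 in gin2, on the log2(RPM + 1) scale, where the median of all genes considered is 0. The libraries with glucose lay above those without it for 150 genes in Col-0, tor and gin2 and for 149 in Ler, where 44.5% of the genes considered did so in Col-0, 27.2% in tor, 18.3% in Ler and 38.8% in gin2. The exception was CRK5 (AT4G23130), a receptor-like kinase, which stood at 5.82, 3.50 and 1.79 RPM without and 10.7, 12.8 and 4.61 RPM with glucose in Ler. The lowest of the 4 differences was the one in tor for 110 genes (73.3%), in gin2 for 28, in Ler for 10 and in Col-0 for 2. Over all 14323 genes it was the one in tor for 34.3%. Of these genes 4775 had differences below 0 in all 4 genotypes, so this share is not a like-for-like measure. Both shares also use the values that chose the genes, and nothing is read from them.

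**Figure D1:**
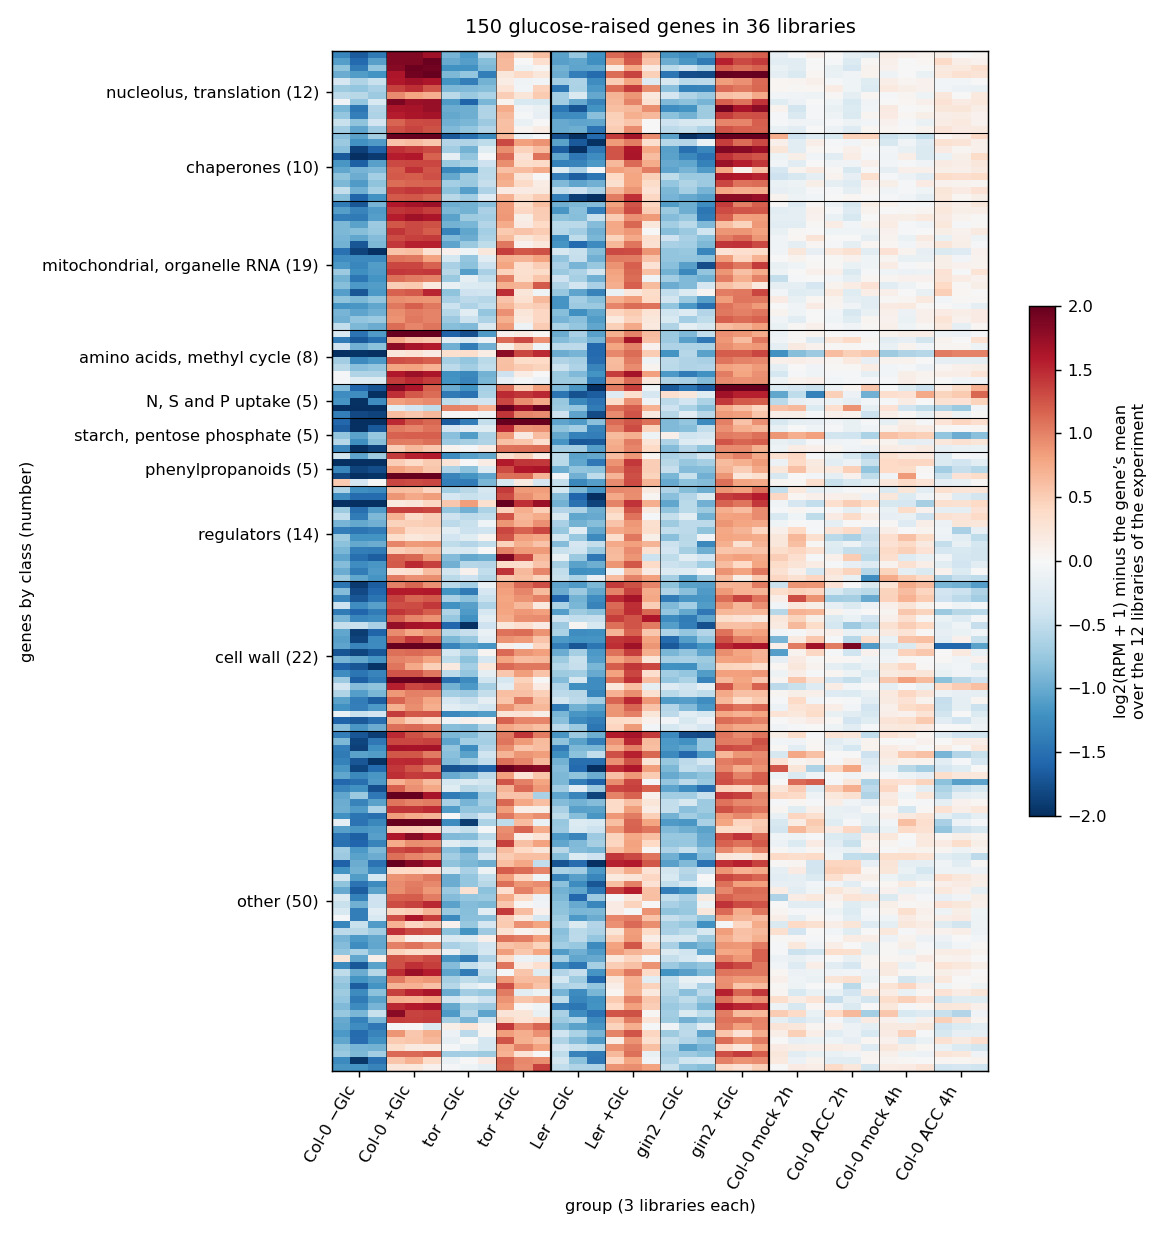
Each row is 1 of the 150 genes, grouped by class, and each column 1 of 36 libraries. Colour gives log2(RPM + 1) minus the gene's mean over the 12 libraries of its experiment, and the libraries with glucose are redder than those without it in all 4 genotypes, while the ethylene libraries differ less.

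To describe the genes by what they do, each was put into a class by hand from its annotation. This was done after their values were seen, so no class is tested. The classes were 22 cell wall genes, 19 genes of mitochondrial carriers, import and organelle RNA, 14 transcription factors, kinases and DUF581 proteins, 12 genes of the nucleolus, ribosome production and translation, 10 chaperone genes, 8 genes of amino acid synthesis and the methyl cycle, and 5 each of nutrient uptake, sugar metabolism and phenylpropanoids. The other 50 genes had mixed or unassigned functions. In the annotation 41 of the 150 genes overlap another gene, and whether strand was used in counting is not given in the sources used here. For APR1, GR-RBP3, TPS5, PGDH and AT5G12110 the other gene is a protein-coding one on the opposite strand, and reads of both may have been counted together.

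The gene with the largest lowest difference was AT3G61820, which encodes an aspartyl protease. In Col-0 it was at 21.0, 16.6 and 14.5 RPM without and 161, 138 and 125 RPM with glucose. In tor it was at 29.9, 30.5 and 35.9 RPM without and 117, 153 and 116 RPM with glucose. In both lines the groups stood far apart, and so they did in Ler (16.4 to 22.6 against 102 to 122 RPM) and gin2 (10.2 to 15.2 against 74.2 to 81.5 RPM). Its glucose differences were 2.83, 1.91, 2.42 and 2.54 in Col-0, tor, Ler and gin2. APR1 and APL3, described below, ranked 2 and 3. Rank 4 was held by a kinesin, AT4G38950 (2.61, 1.61, 2.02 and 2.03 in the same order), rank 6 by a protein annotated as an endonuclease or glycosyl hydrolase, AT5G09840 (3.02, 1.53, 1.77 and 2.14), and rank 7 by a thaumatin-like protein, AT1G73620 (2.24, 1.51, 2.10 and 2.03).

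By lowest difference the genes of nutrient uptake and assimilation ranked 2 (APR1), 21 (NRT2:1), 22 (RFNR2), 75 (PHT1;4) and 85 (NAXT1). APR1 (AT4G04610), adenosine phosphosulphate reductase, reduces activated sulphate on the way to cysteine. It was at 3.43, 1.73 and 1.48 RPM without and 27.9, 24.1 and 17.6 RPM with glucose in Col-0, and at 1.81, 2.31 and 1.85 RPM against 46.9, 38.6 and 38.3 RPM in gin2. The gin2 difference of 3.71 was the largest of the 4 for this gene, beside 2.81 in Col-0, 1.72 in tor and 2.10 in Ler. NRT2:1 (AT1G08090), the main high-affinity nitrate transporter of the root, was at 11.3, 11.3 and 5.34 RPM without and 78.8, 67.1 and 61.9 RPM with glucose in Col-0. In tor it was at 9.88, 9.35 and 17.7 RPM against 80.8, 77.7 and 81.6 RPM, so its difference in tor (2.61) was close to that in Col-0 (2.70), while those in Ler and gin2 were 1.45 and 1.38. PHT1;4 (AT2G38940), a phosphate transporter, had differences of 2.12, 1.16, 1.89 and 1.11 in the 4 genotypes, and the nitrate efflux carrier gene NAXT1 (AT3G45650) had 2.15, 1.09, 1.80 and 1.08. RFNR2 (AT1G30510), a root ferredoxin reductase that feeds electrons to nitrite reduction, had 2.23, 1.38, 1.49 and 1.69.

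**Figure D2:**
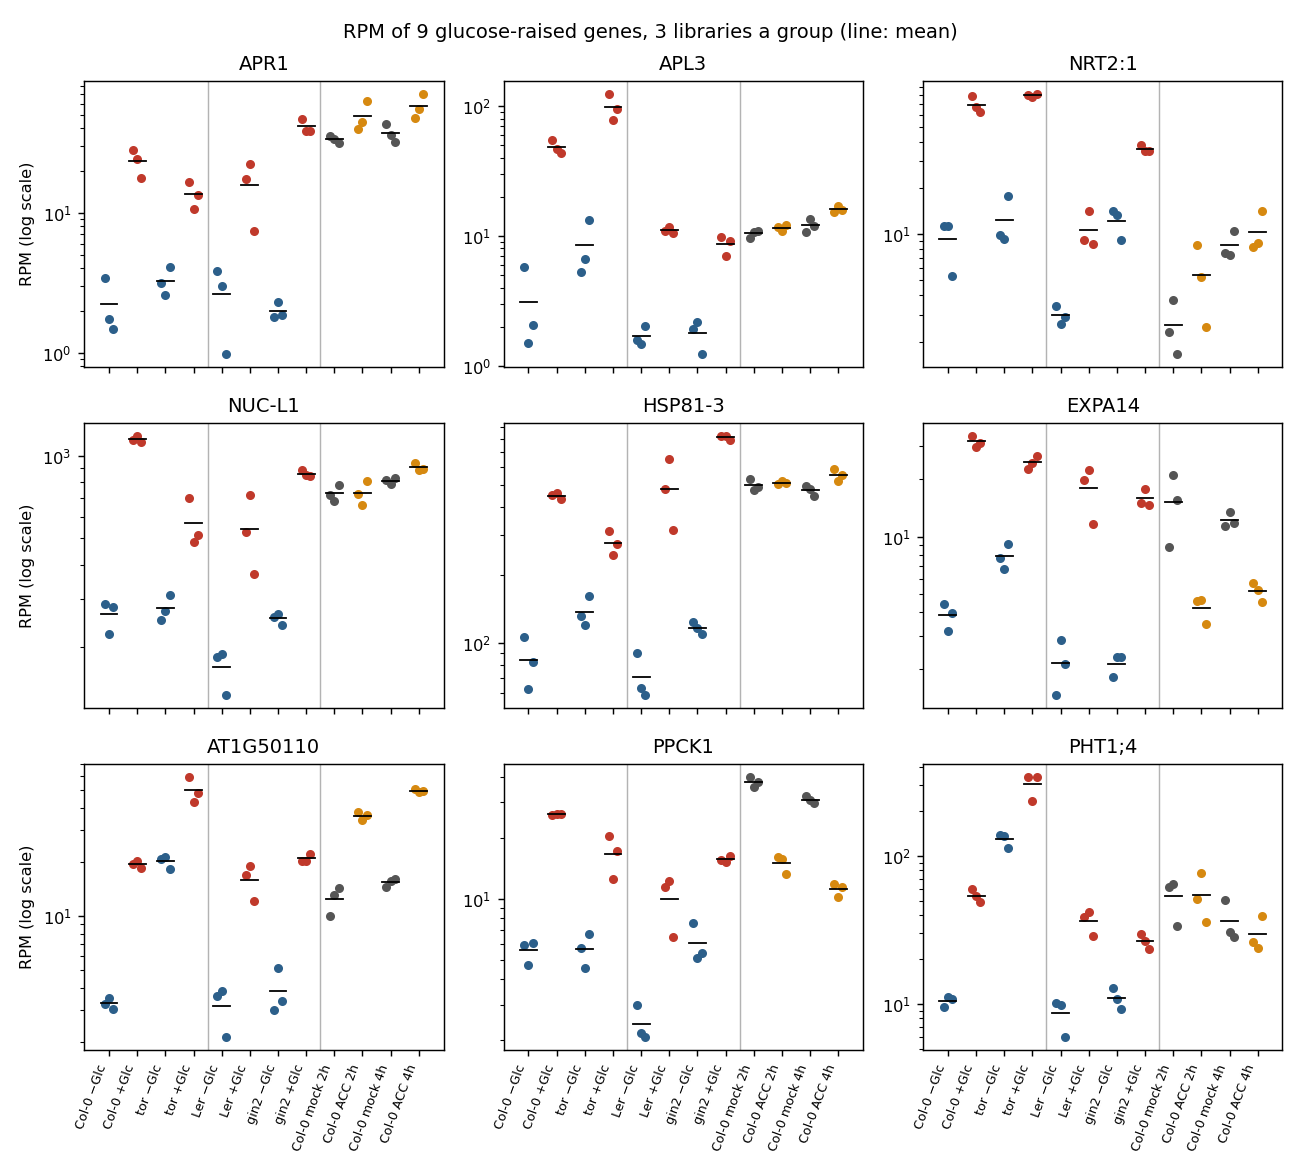
RPM on a log axis in each library of the 12 groups for 9 of the genes, with blue for libraries without and red for those with glucose, grey for mock and orange for ACC, and a line at each group mean. NRT2:1 in mock libraries at 2 h lies below its level without glucose in Col-0, AT1G50110 rises and EXPA14 and PPCK1 fall with ACC, and PHT1;4 is higher in tor than in Col-0 in both glucose states.

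The genes of the nucleolus and of translation had median differences of 2.23 in Col-0, 1.03 in tor, 1.61 in Ler and 2.02 in gin2. FIB2 (AT4G25630), fibrillarin, is the methylase of the snoRNA particles that modify ribosomal RNA. It was at 29.2, 22.5 and 27.2 RPM without and 268, 268 and 242 RPM with glucose in Col-0, and at 38.2, 32.7 and 49.4 RPM against 119, 95.0 and 112 RPM in tor. NUC-L1 (AT1G48920), nucleolin, which acts on ribosomal DNA and the first processing of its transcript, was at 289, 223 and 281 RPM against 1143, 1188 and 1129 RPM in Col-0 and at 252, 271 and 311 RPM against 703, 486 and 513 RPM in tor. Without glucose FIB2 was higher in each tor library than in any Col-0 library and NUC-L1 overlapped between the lines, and with glucose both genes were lower in tor. NOP56 (AT1G56110), another core protein of these particles, had differences of 2.41, 0.97, 1.64 and 2.04. SWA1 (AT2G47990) and OLI2 (AT5G55920), needed to process ribosomal RNA, had 1.95, 1.05, 2.14 and 2.18 and 2.53, 0.97, 2.10 and 2.73. The largest difference of the class in gin2 was 3.55, for a gene of the beta subunit of elongation factor 1, AT5G12110, which had 2.20 in Ler. Of a longer list of 45 ribosome biogenesis genes, 43 were among the genes considered, 40 of these had a difference above 0 in all 4 genotypes and 5 were among the 150. Of all 14323 genes considered, 4831 had a difference above 0 in all 4. Of the 45, 43 were called higher with glucose in Col-0 and 29 in tor, and of the 43 tested in the other experiment 35 were in Ler and 37 in gin2. None was called lower in the 4 genotypes. Of all genes tested, 35.7% were called higher in Col-0, 19.9% in tor, 17.4% in Ler and 18.7% in gin2. This list and those below were chosen with earlier results of these data known, so their counts are a description only.

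The 10 chaperone genes had medians of 2.22 in Col-0, 1.11 in tor, 2.13 in Ler and 2.33 in gin2. AT5G51440 encodes a small heat shock protein. It was at 7.42, 6.19 and 8.35 RPM without and 58.3, 68.5 and 79.4 RPM with glucose in Col-0, and at 8.02, 2.95 and 4.16 RPM against 93.1, 79.0 and 106 RPM in gin2. Its differences of 2.93, 1.61, 3.15 and 3.92 include the largest that any of the 150 genes had in gin2 or Ler. HSP81-3 (AT5G56010), an HSP90 of the cytosol, was at 107, 62.7 and 82.6 RPM against 453, 461 and 433 RPM in Col-0 and at 132, 120 and 161 RPM against 313, 246 and 275 RPM in tor. The cytosolic HSP70 genes AT3G09440 and Hsp70-2 (AT5G02490) had differences of 2.71, 1.25, 2.84 and 2.98 and of 3.29, 1.12, 2.32 and 2.51. These belong to a family of close copies, and how reads shared by copies were counted is not given in the sources used here, so the split between them is uncertain. The mitochondrial chaperones MTHSC70-2 (AT5G09590) and HSP60-2 (AT2G33210) had 2.50, 1.10, 2.03 and 2.60 and 1.97, 0.99, 1.37 and 1.77. Of a list of 20 chaperone genes, 18 of 19 tested were called higher with glucose in Col-0, 13 of 19 in tor, and 17 of 18 in both Ler and gin2, with 4 among the 150. The shares of all genes tested were 35.7% in Col-0, 19.9% in tor, 17.4% in Ler and 18.7% in gin2.

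The mitochondrial and organelle RNA class had medians of 2.12, 1.12, 1.37 and 1.55 in Col-0, tor, Ler and gin2. GR-RBP3 (AT5G61030), a glycine-rich RNA-binding protein, was at 5.93, 4.57 and 8.67 RPM without and 54.5, 57.2 and 59.2 RPM with glucose in Col-0. It was at 8.32, 8.49 and 9.29 RPM against 32.2, 22.6 and 26.8 RPM in tor. PMH1 (AT3G22310), a mitochondrial RNA helicase, had differences of 2.49, 1.37, 1.95 and 2.21. AAC2 (AT5G13490), which exchanges ADP and ATP across the inner membrane, had 2.12, 1.12, 1.53 and 1.34, and UCP5 (AT2G22500), a carrier of dicarboxylates, had 2.22, 1.17, 1.62 and 1.16. All 12 tested genes of a list of mitochondrial import and carriers were called higher with glucose in Col-0 and in tor, 8 in Ler and 11 in gin2. Beside these counts stand 35.7% of all genes tested in Col-0, 19.9% in tor, 17.4% in Ler and 18.7% in gin2.

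Among amino acid and methyl cycle genes, several act in 1 path. PGDH (AT1G17745) and AT2G17630, a transaminase family protein, had differences of 2.03, 1.29, 1.87 and 1.81 and of 2.27, 1.22, 1.41 and 1.39. PGDH makes the first step from phosphoglycerate to serine. SHM4 (AT4G13930) moves the one-carbon unit of serine onto folate and had 1.48, 0.99, 1.57 and 1.53. MS2 (AT3G03780), methionine synthase, uses that unit. It was at 112, 49.4 and 62.9 RPM without and 678, 796 and 721 RPM with glucose in Col-0, and at 44.8, 40.2 and 62.8 RPM against 148, 154 and 143 RPM in tor. MTO3 (AT3G17390) makes S-adenosylmethionine, the methyl donor, and SAHH2 (AT3G23810) clears the product of methyl transfer. MTO3 was at 500, 406 and 424 RPM against 1258, 1268 and 1178 RPM in Col-0 and 505, 447 and 514 RPM against 1094, 1028 and 989 RPM in tor, which left its differences within a narrow span, 1.35, 1.03, 1.26 and 1.27. SAHH2 was at 598, 404 and 405 RPM against 1861, 2010 and 1902 RPM in Col-0 and at 264, 249 and 319 RPM against 461, 676 and 617 RPM in tor. The SAHH2 and MS2 libraries with glucose did not overlap between Col-0 and tor, and neither did those of MTO3, although they lay closer together.

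APL3 (AT4G39210), a large subunit of the enzyme that makes ADP-glucose for starch, was at 5.71, 1.51 and 2.06 RPM without and 55.0, 46.3 and 43.4 RPM with glucose in Col-0. In tor it was at 5.30, 6.68 and 13.3 RPM against 124, 78.4 and 95.0 RPM. Its level with glucose was higher in all 3 tor libraries than in any Col-0 library, and its differences were 3.59, 3.42, 2.08 and 1.69. TPS5 (AT4G17770), of the trehalose phosphate synthase family, had 2.77, 1.32, 1.77 and 1.39. The pentose phosphate enzymes G6PD3 (AT1G24280) and a transketolase (AT2G45290) had 1.81, 1.10, 2.10 and 1.46 and 2.16, 0.98, 1.45 and 1.51. PPCK1 (AT1G08650), the kinase that activates phosphoenolpyruvate carboxylase, had 1.92, 1.36, 1.58 and 1.15. Of a list of 7 genes known to rise when sugar runs out, none was a member, and all 7 were called lower with glucose in each genotype, where 20.6% of all genes tested were lower in Col-0, 14.8% in tor, 11.3% in Ler and 8.73% in gin2.

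PAP1 (AT1G56650), a MYB factor that switches on anthocyanin synthesis, had the largest Col-0 difference of the 150 genes, 4.48. It was at 2.27, 0.669 and 1.96 RPM without and 64.8, 61.0 and 56.9 RPM with glucose in Col-0. In Ler it was at 1.45, 0.318 and 0.806 RPM against 3.09, 5.27 and 2.48 RPM, and its differences in tor, Ler and gin2 were 2.11, 1.23 and 1.13. PAP1 thus had a wide span between genotypes although it passed the limit in all 4. 4CL3 (AT1G65060), a coumarate ligase that feeds flavonoids, had 1.13, 1.02, 1.85 and 1.67. The differences of the 14 regulators ran from 1.17 to 2.90 in Col-0 and from 0.98 to 2.19 in tor, and some varied little between genotypes. CRF3 (AT5G53290), a cytokinin response factor, had 1.47, 1.499, 1.42 and 1.64, bHLH071 (AT5G46690) had 1.17, 1.09, 1.22 and 1.15, and the DUF581 gene AT5G47060 had 1.33, 1.32, 1.17 and 1.29. DUF581 proteins are small zinc finger proteins known to bind the starvation kinase SnRK1. The largest tor difference of any of the 150 genes, 3.59, was that of AT2G41090, a calcium-binding EF-hand protein, at 26.8, 27.7 and 29.8 RPM without and 428, 338 and 327 RPM with glucose in tor.

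The cell wall genes had medians of 2.23, 1.33, 1.78 and 1.52 in Col-0, tor, Ler and gin2. Expansins loosen the wall so that cells can enlarge. EXPA14 (AT5G56320) was at 4.43, 3.18 and 3.97 RPM without and 34.0, 29.8 and 31.2 RPM with glucose in Col-0, and at 7.70, 6.73 and 9.12 RPM against 22.6, 24.4 and 26.6 RPM in tor. EXPB3 (AT4G28250) was at 3.10, 1.17 and 1.53 RPM against 32.7, 33.8 and 28.9 RPM in Col-0 but at 1.40, 1.81 and 4.14 RPM against 4.29, 8.29 and 5.71 RPM in tor. EXPB3 barely separated the tor libraries, which made it the member with one of the widest gaps between the lines, 3.40 against 1.03. GH9C2 (AT1G64390), a cellulase family protein, had 2.88, 1.74, 1.87 and 1.49. The cellulose synthase gene CESA5 (AT5G09870) had 1.69, 1.13, 1.36 and 1.03, and the xyloglucan enzyme gene XTH31 (AT3G44990) had 1.98, 1.03, 1.15 and 1.26. AT2G41800 and AT2G41810, DUF642 proteins of the wall, were the only pair of members that are neighbouring protein-coding genes. Of the 3 root hair markers, whose sums are given above, 3 were called higher with glucose in Col-0, 0 in tor and 2 each in Ler and gin2, and their part in these values was not tested.

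**Figure D3:**
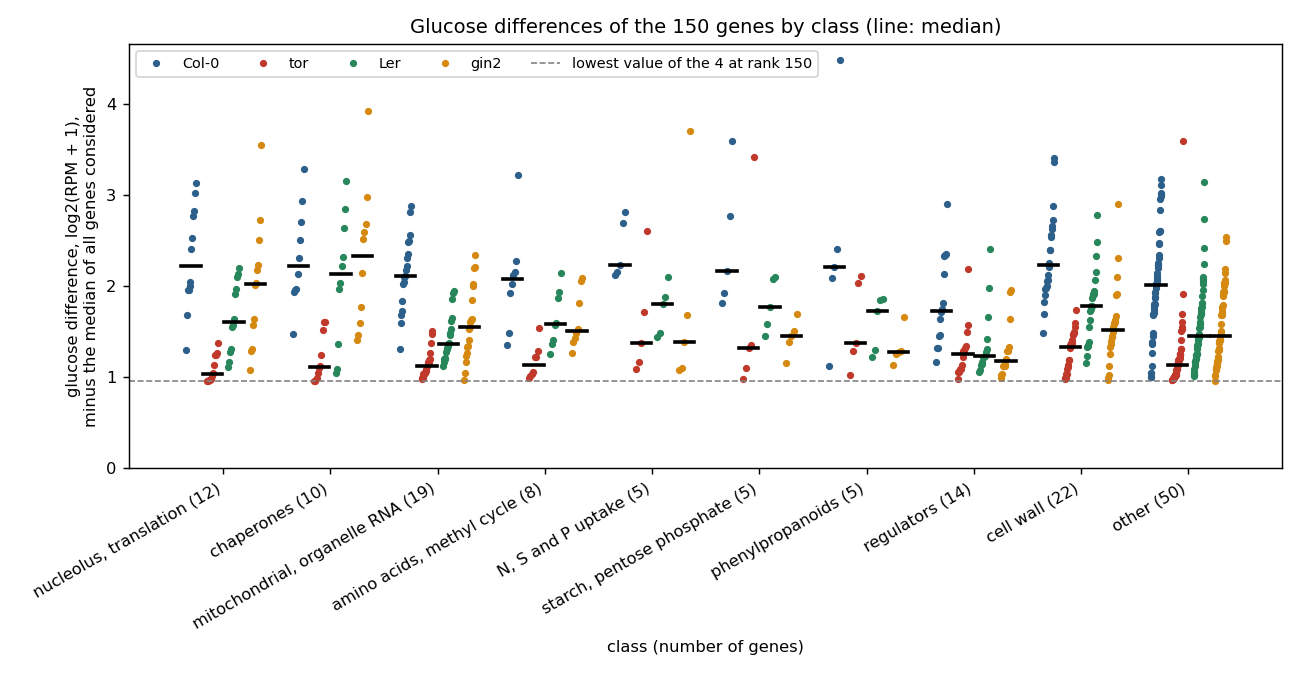
Glucose differences in log2(RPM + 1), less the median of all genes considered, for each gene by class and genotype, with a black line at the median and a dashed line at the lowest difference of the last gene taken. In the nucleolus class the medians are 2.23 in Col-0 and 1.03 in tor, and in the regulators 1.73 and 1.26.

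Of the 150 genes, 145 had a larger difference in Col-0 than in tor, and 76 had a larger one in gin2 than in Ler. Both counts use the values that chose the genes. The widest gaps below Col-0 were those of EXPB3 and PAP1 (both -2.37 for tor minus Col-0) and Hsp70-2 (-2.17), and the widest above it was that of AT2G41090 (0.98). Between gin2 and Ler, APR1 (1.60), AT5G12110 (1.35), AT5G02050 (0.85) and AT5G51440 (0.77) led in the direction of gin2, and AT2G41090 (-1.33), PHT1;4 (-0.78), CHX16 (AT1G64170) and AT5G19730 (both -0.74) in that of Ler. The larger gin2 difference was found in 11 of 12 genes of the nucleolus class and 9 of 10 chaperone genes, and the larger Ler difference in 17 of 22 cell wall genes and all 5 phenylpropanoid genes. These class counts also use the values that chose the genes, in classes made after those values were seen. No share over all genes stands beside them, and they are a description only. The limit itself separates near-equal values. The last genes taken were HSP81-3, NUC-L1 and PLP9 (AT3G63200), with lowest differences of 0.962, 0.960 and 0.959, and the first left out were AT1G19450, mtHsc70-1 (AT4G37910) and AT5G41670, with 0.955, 0.955 and 0.954.

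The mock libraries of the ethylene experiment were not used to choose the genes. They come from Col-0 that had glucose in its medium throughout, and their RPM was set beside the glucose-TOR values of Col-0, which the authors normalised in another set of libraries, over another set of listed genes. By the mean of the 6 mock libraries, 115 of the 150 genes (76.7%) lay between the Col-0 means without and with glucose, 27 lay above the higher and 8 below the lower. Of all 8387 genes that were higher with glucose in Col-0 by any amount, 37.6% lay between, 46.6% above and 15.8% below. With median-of-ratios scaling 118 of the 150 genes lay between, 21 above and 11 below. Of the 8387 genes 34.0% then lay between, 38.2% above and 27.8% below. Since the 150 have wide spans between their means, the larger share in between is a description only. HSP81-3 (446 to 531 RPM in mock libraries), PPCK1 (29.7 to 39.99 RPM) and APR1 (31.6 to 42.9 RPM) had mock means above their means with glucose of 449, 26.1 and 23.2 RPM. NUC-L1, at 686 to 832 RPM, lay between 264 and 1153 RPM. Among the 8 genes below their starved mean were NRT2:1, at 1.66 to 10.5 RPM, AT5G51440, at 3.74 to 10.0 RPM, and 4CL3, at 60.5 to 78.5 RPM. For NRT2:1 the mock libraries at 2 h (2.31, 3.76 and 1.66 RPM) did not overlap with those at 4 h (7.55, 7.35 and 10.5 RPM). PAP1, at 1.26 to 4.05 RPM, lay near its level without glucose.

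ACC was tested against mock in libraries that took no part in the choice of the genes. With limma across all 19442 genes tested, a gene was called at a Benjamini-Hochberg adjusted p below 0.05. At 2 h, 19 of the 150 genes fell and 8 rose, which is 12.7% and 5.33%, where 3.78% of all genes tested fell and 5.47% rose. At 4 h, 36 fell (24%) and 18 rose (12%), where 8.88% of all genes tested fell and 10.5% rose. With median-of-ratios scaling 1986 of all genes fell and 1462 rose at 4 h, in place of 1726 and 2047. Of the members called at 4 h, 14 of the 18 that rose and all 36 that fell were also called with that scaling. By RPM as deposited, the share of the 150 that rose was near that of all genes, and the share that fell was above it at both times. The median log2 change of the 150 was -0.05 at 2 h and -0.04 at 4 h, beside 0.03 and 0.04 for all genes. Both times together, 59 genes were called at one or the other, 16 were lower and 6 higher at both, and none was called in opposite directions. Without mock library 3 or ACC library 3 of the 4 h groups 11 genes rose in place of 18.

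Most calls in the cell wall class were falls. At 4 h 14 of its 22 genes fell and 1 rose, and at 2 h 8 fell and 1 rose. Of all genes tested 8.88% fell and 10.5% rose at 4 h, and 3.78% fell and 5.47% rose at 2 h. As the class was made after the values were seen, its counts are a description only. EXPA14 was at 8.82, 21.2 and 15.7 RPM in mock and 4.55, 4.63 and 3.48 RPM in ACC libraries at 2 h, and at 11.4, 13.5 and 11.8 RPM against 5.72, 5.22 and 4.53 RPM at 4 h. The groups did not overlap at either time, and the log2 changes were -1.57 ± 0.22 at 2 h and -1.10 ± 0.22 at 4 h (± SE, limma adjusted p = 0.00041 and 0.00382). EXPB3, at 20.4, 25.02 and 21.9 RPM against 7.30, 8.998 and 10.0 RPM at 4 h, fell by 1.26 ± 0.14 on the log2 scale (limma adjusted p = 4.23e-05). GH9C2, at 150, 169 and 148 RPM against 83.8, 81.0 and 72.1 RPM, fell by 0.97 ± 0.08 (limma adjusted p = 3.01e-06). AT5G10130, of the Ole e 1 and extensin family, fell by 1.53 ± 0.28 at 4 h, to 5.66, 5.50 and 4.88 RPM from 14.2, 19.9 and 18.4 RPM (limma adjusted p = 0.0022). EXPA15 (AT2G03090) and CESA5 fell at both times as well. XTH31 went the other way, from 384, 431 and 396 RPM to 574, 620 and 661 RPM at 4 h, a rise of 0.61 ± 0.08 (limma adjusted p = 0.000187). Root hair markers summed to 59.4 to 76.8 RPM in mock and 93.1 to 98.2 RPM in ACC libraries at 4 h, and green tissue markers to 18858 to 20443 and 14769 to 16823 RPM. Their part in these changes was not tested.

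Outside the cell wall, PPCK1 had 39.99, 35.5 and 38.0 RPM in mock and 16.1, 15.7 and 13.2 RPM in ACC libraries at 2 h, and 32.4, 30.7 and 29.7 RPM against 11.8, 10.2 and 11.4 RPM at 4 h. It fell by 1.28 ± 0.08 and 1.40 ± 0.08 on the log2 scale (limma adjusted p = 8.42e-07 and 5.35e-07). bHLH071 fell by 0.95 ± 0.13 and 0.72 ± 0.13, and the phenylpropanoid genes 4CL3 and UGT71C1 (AT2G29750) also fell at both times. The largest rise was that of AT1G50110, annotated as an aminotransferase of the D-amino acid type, from 9.97, 13.0 and 14.3 RPM to 37.7, 34.1 and 36.4 RPM at 2 h and from 14.5, 15.6 and 16.1 RPM to 51.0, 49.2 and 49.3 RPM at 4 h. Its changes were 1.48 ± 0.10 and 1.63 ± 0.10 (limma adjusted p = 1.04e-06 and 5.35e-07). AT5G53420, a CCT motif protein, rose by 0.69 ± 0.11 and 0.78 ± 0.11. At 4 h APR1 rose by 0.63 ± 0.16 (limma adjusted p = 0.0178), from 42.9, 36.1 and 31.8 RPM to 47.8, 55.3 and 70.4 RPM, and APL3 by 0.38 ± 0.09 (limma adjusted p = 0.00903). Of the 10 chaperone genes 5 rose at 4 h, by 0.23 to 0.48, and none fell, and 3 of the 5 were also called with median-of-ratios scaling. In the nucleolus class 1 gene of 12, AT5G12110, rose at 4 h (0.33 ± 0.09), and in the mitochondrial class of 19 none was called at 4 h. Of the 45 ribosome biogenesis genes none was called at 2 h, and 10 rose and none fell at 4 h. Beside these counts, 10.5% of all genes tested rose and 8.88% fell at 4 h, and 9.25% were called in either direction at 2 h. The classes were made after the values were seen and the list with earlier results known, so these counts are a description only.

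**Figure D4:**
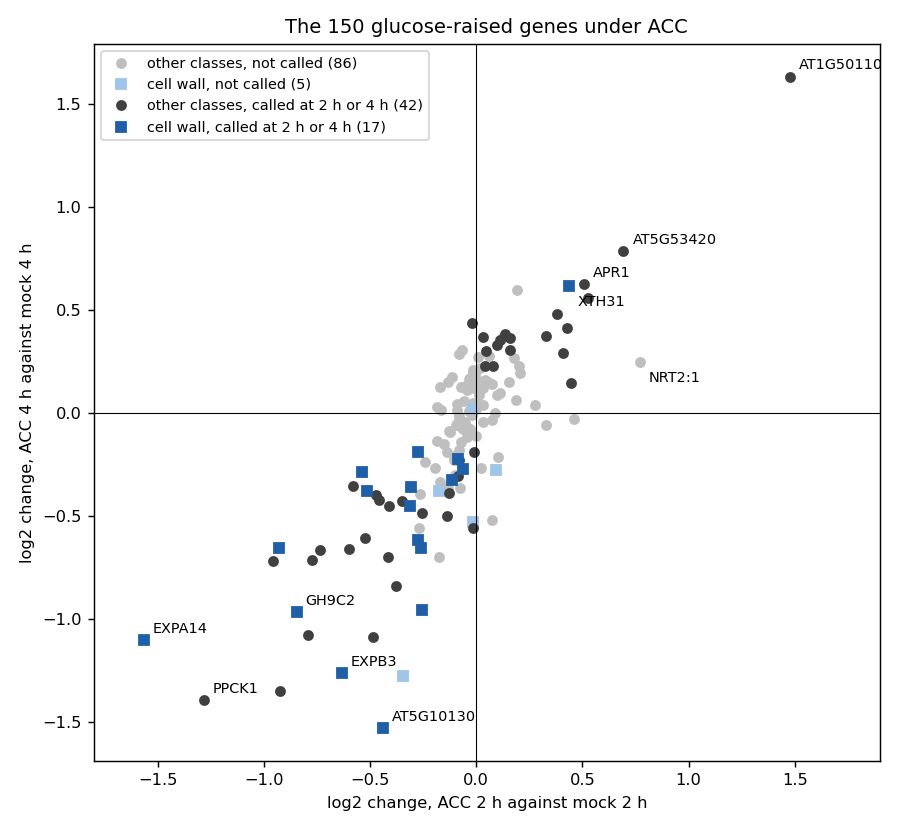
Log2 changes of the 150 genes with ACC at 2 h (horizontal) and 4 h (vertical), squares for cell wall genes and circles for other classes, with dark marks for genes called at either time. Of the 22 cell wall genes 17 are dark, most of them at the lower left, and AT1G50110 is at the upper right at 1.48 and 1.63.

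A test of the difference between the ACC changes at 4 h and at 2 h called none of the 150 genes with limma, and 13 had an unadjusted p below 0.05. edgeR and DESeq2 called 0 as well, and of all genes tested limma called 0.036%. Without ACC library 3 of 2 h, limma called 3 of the 150 lower. Mock seedlings at 4 h against 2 h gave no call among the 150 with limma or edgeR and 1 with DESeq2, with 22 at an unadjusted p below 0.05, where limma called 0.0566% of all genes.

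The level of the genes in tor and Col-0 was averaged over both glucose states. It comes from the same libraries that chose the genes, and a smaller glucose difference in tor lowers this average too, so the values of each state are needed beside it. Of the 150 genes 51 were higher and 54 lower in tor, which is 34% and 36%, where 45.8% of all 19336 genes tested were higher and 23.4% lower. The median of all genes lay at 0.19, which median-of-ratios scaling moved to -0.01, and with that scaling 40 members were higher and 74 lower, and of all genes 6595 and 6892 in place of 8861 and 4524. By group means, 30 of the 54 lower members were below Col-0 in both states and 24 only with glucose, and 41 of the 51 higher members were above it in both. Of the 45 members not called, 44 were above Col-0 without glucose and 4 with it. Over all 150 genes, 118 were above Col-0 without glucose and 46 with it. These counts use the values that chose the genes and are a description only. In the nucleolus class all 12 genes were lower in tor on average, also with median-of-ratios scaling. HDT4 (AT2G27840), a plant histone deacetylase of the nucleolus, was at 29.97, 18.1 and 25.3 RPM without and 120, 107 and 108 RPM with glucose in Col-0, and at 14.0, 9.75 and 16.3 RPM and 33.3, 25.4 and 25.1 RPM in tor. It was lower in tor in either state, by -1.40 ± 0.14 on average (limma adjusted p = 1.08e-06), and RACK1C_AT (AT3G18130), a ribosomal protein, by -1.17 ± 0.08 (limma adjusted p = 5.1e-08). On average NUC-L1 was lower by -0.48 ± 0.10 and FIB2 by -0.34 ± 0.10, but these averages hide the glucose state. Without glucose the tor minus Col-0 difference in log2(RPM + 1) was 0.08 for NUC-L1 and 0.58 for FIB2, and with glucose it was -1.04 and -1.25. Of the 12 genes of the class 6 had group means below Col-0 in both states, and the other 6 only with glucose. Relative to the median of all genes considered, which lay at 0.24 without and 0.14 with glucose, 2 of the 12 were above it without glucose and 0 with it. Of the 45 ribosome biogenesis genes 40 were lower on average and 1 higher. In the methyl cycle MS2 (-1.41 ± 0.16), SHM4 (-1.25 ± 0.08) and SAHH2 (-1.24 ± 0.12) were lower, and MTO3 (-0.05 ± 0.07) was not called.

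Other members were higher in tor in both states. PHT1;4 stood at 9.58, 11.2 and 10.8 RPM in Col-0 and 139, 137 and 114 RPM in tor without glucose, and at 59.5, 53.4 and 48.9 RPM and 341, 234 and 341 RPM with it. Its level without glucose in tor was above that with glucose in Col-0, and the average difference was 2.98 ± 0.10 (limma adjusted p = 2.14e-10). AT5G53420 stood at 13.7, 7.19 and 10.6 RPM in Col-0 and 108, 132 and 92.2 RPM in tor without glucose and was higher by 2.46 ± 0.18 (limma adjusted p = 7.47e-08). AT1G50110 was higher by 1.81 ± 0.09, UGT71C1 by 1.62 ± 0.07 and NAXT1 by 1.08 ± 0.10. AT1G50110 and AT5G53420 were thus higher with ACC at both times and in tor. So was AT5G47060, by 0.53 ± 0.11 and 0.56 ± 0.11 with ACC and 0.41 ± 0.15 in tor (limma adjusted p = 0.0258). The median of all genes in tor against Col-0 lay at 0.19, and AT5G47060 is nearer to it than AT1G50110 and AT5G53420. Of the 6 members higher with ACC at both times, XTH31 and AT5G27330 were lower in tor and AT5G66310 was not called. Their rise with glucose was fixed by the choice of the genes. Of the 14 regulators 9 were higher and 1 lower in tor, and with median-of-ratios scaling 8 of the 9 were. Of all genes tested 45.8% were higher and 23.4% lower in tor. As the class was made after the values were seen, its count is a description only. Green tissue markers summed to 26782 to 35305 RPM in Col-0 and 13362 to 16061 RPM in tor without glucose, and to 22529 to 25670 and 9630 to 18985 RPM with it, and 2 of 3 were called lower in tor. Root hair markers were lower in tor (3 of 3) and seed storage markers CRA1, CRU3 and OLEO1 higher (3 of 3), summing to 4.42 to 188 RPM without glucose in tor and 1.16 to 5.15 RPM in Col-0. With glucose the seed storage markers summed to 6.23 to 54.1 RPM in tor and 0.959 to 33.1 RPM in Col-0. Their ranges in the lines overlapped in both states. Their part in these differences was not tested.

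For gin2 against Ler averaged over both glucose states, 52 of the 150 genes were higher and 16 lower, where 71.1% of all 17352 genes tested were higher and 2.58% lower. The median of all genes lay at 0.58, and median-of-ratios scaling moved it to 0.01. With that scaling 9 members were higher and 82 lower, and of all genes 4394 and 4219 in place of 12340 and 448, and 22 of the 68 calls had the opposite sign, so only genes called in the same direction under both are named. NRT2:1 was at 3.42, 2.61 and 2.88 RPM in Ler and 14.2, 13.2 and 9.23 RPM in gin2 without glucose, and at 9.20, 14.1 and 8.65 RPM and 38.0, 34.5 and 34.8 RPM with it. The groups did not overlap in either state, and the average difference was 1.70 ± 0.16 (limma adjusted p = 5.85e-09), or 1.13 with the other scaling. AGP15 (AT5G11740), an arabinogalactan protein of the cell surface, was lower in gin2, at 74.4, 67.0 and 85.7 RPM against 134, 127 and 130 RPM in Ler without glucose, by -0.96 ± 0.15 (limma adjusted p = 6.71e-06), or -1.60. EXPA15 was lower by -0.81 ± 0.16 (limma adjusted p = 0.000109), or -1.42, and AT3G61820 by -0.59 ± 0.15 (limma adjusted p = 0.00143), or -1.21. G6PD3 was higher by 0.85 ± 0.16 (limma adjusted p = 6.3e-05), or 0.27 with the other scaling. Seed storage markers summed to 14.6 to 310 RPM in Ler and 2.00 to 10.4 RPM in gin2 without glucose, and to 203 to 415 and 4.53 to 36.7 RPM with it. Root hair markers summed to 16.1 to 34.7 and 9.39 to 10.8 RPM without and to 29.7 to 59.5 and 22.8 to 23.8 RPM with glucose, and green tissue markers overlapped between the lines. Their part in these differences was not tested.

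Promoters of the genes were read from the RefSeq annotation of assembly TAIR10.1, since the build behind the table is not given in the sources used here. All 150 genes matched by code. The window ran from 250 bases before to 50 after the annotated start, and 6 motifs were searched as exact letters on both strands. These are the telo box AAACCCTA and site II (TGGGCC or TGGGCT), both known from promoters of ribosomal protein and growth genes, the G box CACGTG, the letters TATAAA, the heat shock element GAANNTTC and the E2F letters TTTCCCGC. None of these motifs contains another. The telo box was in 21 of the 150 promoters (14.0%), beside 6.22% of all 27443 promoters and 5.66% of those of the genes considered. Site II was in 41 (27.3%), beside 21.7% and 28.2%. The G box was in 9 (6%, beside 7.68% of all), TATAAA in 79 (52.7%, beside 52.1%), the heat shock element in 22 (14.7%, beside 11.6%) and the E2F letters in 1 (0.667%, beside 0.798%). With the 250 bases before the start alone, the telo box was in 9 (6%, beside 4.49% of all). In the other 12 (8%, beside 1.73% of all) it lay across or after the start. By class, the telo box was in 6 of 12 promoters of the nucleolus class, 5 of 19 of the mitochondrial class, 1 of 10 of the chaperones and 1 of 22 of the cell wall genes, and site II in 7, 9, 7 and 3 of these. A match in letters is no proof of a site.

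**Figure D5:**
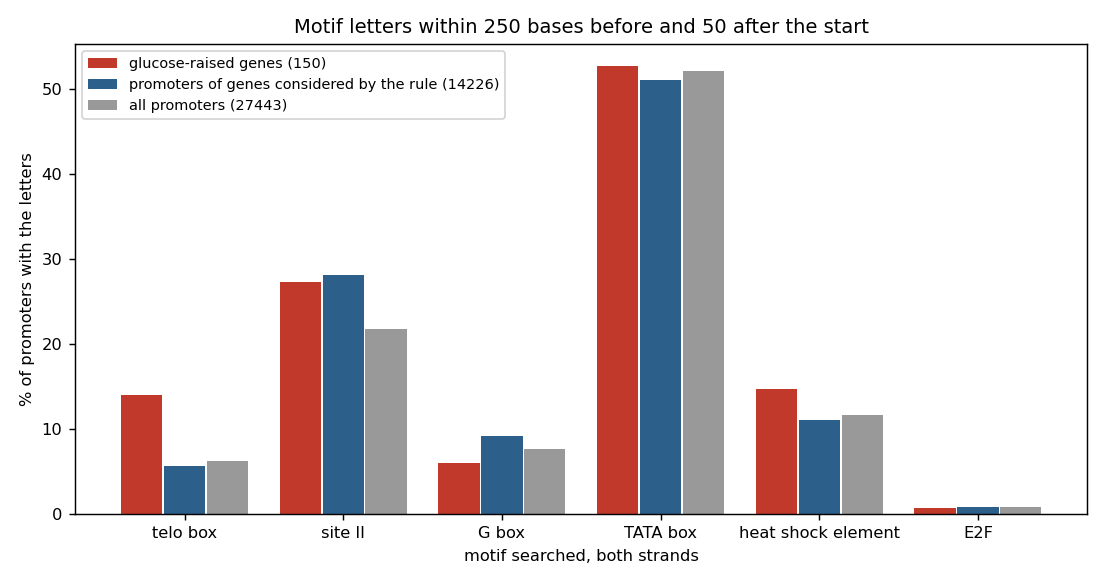
Share of promoters, in %, that hold the letters of each of 6 motifs on either strand, for the 150 genes (red), the genes considered by the rule (blue) and all protein-coding genes (grey). The telo box stands at 14.0% in the 150 genes beside 5.66% and 6.22%, and the TATA letters at 52.7% beside 51.0% and 52.1%.

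To show how telo box and site II letters sit, the 120 bases before the start are given for 2 nucleolus genes and 2 mitochondrial chaperone genes with a match to either and for 2 expansin genes with a match to neither, 5′ to 3′ on the gene's strand, with telo box and site II letters in capitals. They lie in TAIR10.1 at chr1:20986953-20987072 (minus strand, NOP56), chr2:19638679-19638798 (minus, SWA1), chr2:14078773-14078892 (minus, HSP60-2), chr5:2975316-2975435 (plus, MTHSC70-2), chr5:22808521-22808640 (plus, EXPA14) and chr4:14002125-14002244 (minus, EXPB3).
NOP56: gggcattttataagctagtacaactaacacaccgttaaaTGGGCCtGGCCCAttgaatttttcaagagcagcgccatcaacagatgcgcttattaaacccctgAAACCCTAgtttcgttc
SWA1: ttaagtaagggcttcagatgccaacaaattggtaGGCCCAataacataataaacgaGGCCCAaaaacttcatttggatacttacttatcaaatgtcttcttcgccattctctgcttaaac
HSP60-2: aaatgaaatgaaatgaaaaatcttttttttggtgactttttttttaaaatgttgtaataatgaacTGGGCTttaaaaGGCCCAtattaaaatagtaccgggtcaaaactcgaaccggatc
MTHSC70-2: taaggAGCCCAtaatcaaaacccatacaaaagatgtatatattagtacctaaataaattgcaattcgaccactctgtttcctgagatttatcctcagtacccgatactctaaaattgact
EXPA14: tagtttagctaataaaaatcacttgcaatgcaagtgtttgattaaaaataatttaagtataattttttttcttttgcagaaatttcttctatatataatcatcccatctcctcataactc
EXPB3: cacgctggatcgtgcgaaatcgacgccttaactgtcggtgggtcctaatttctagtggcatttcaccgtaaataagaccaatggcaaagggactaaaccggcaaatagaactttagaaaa

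Around the start itself the telo box is shown with 8 bases on each side for 5 genes of the nucleolus class, 5′ to 3′, with the box in capitals. The box begins at base 25 after the start in FIB2 (chr4:13074106-13074129, plus strand), 2 in NUC-L1 (chr1:18098074-18098097, plus), 3 in RRP4 (chr1:824511-824534, plus), 12 in AT4G04940 (chr4:2517191-2517214, minus) and 4 bases before it in SWA1 (chr2:19638667-19638690, minus).
FIB2: ccctgttaAAACCCTAgcttgaaa
NUC-L1: atgttctaAAACCCTAagctgaaa
RRP4: ataacacaAAACCCTAgaattcat
AT4G04940: atttcgttAAACCCTAaaccccaa
SWA1: ctctgcttAAACCCTAaaccagcc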

How the data were processed

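RNA of whole Arabidopsis seedlings was sequenced in 36 libraries, and the deposited table gives RPM per gene and library as made by the authors. TopHat and HTSeq are named per the submitters' processing notes, and their versions, settings, strand use and genome build are not given in the sources used here. Since the 3 experiments list different gene sets, tests were run within an experiment only. Depth was read from the steps of the RPM values.

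The 150 genes and all gene lists were chosen with earlier results of these data known. They were the 150 with the largest lowest e, where e is the glucose difference in mean log2(RPM + 1), less its median over 14323 genes. Differences between groups were fitted with limma 3.58.1 (R 4.3.3), with a mean-variance trend, on log2(RPM + 1) over the 12 libraries of an experiment. A gene was tested where 3 or more of these libraries reached 1 RPM, two-sided, with Benjamini-Hochberg adjustment over all genes tested and a threshold of 0.05. A fold change on this scale understates the change of low genes. The fit was tested on simulated data. p-values measure the spread between libraries labelled as replicates. Genes are named by rank of lowest e, by mean RPM, by place near the limit, by size of a called change, by gap between genotypes and by list; other examples, and the classes, were chosen after their values were seen.

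Alternatives were edgeR 4.0.16 and DESeq2 1.42.0 on whole reads recovered, median-of-ratios scaling, no filter, a pseudocount of 0.25, the compared groups alone, a replicate block, a 2-fold minimum and leaving libraries out. Whole reads within 0.02 were found for 100% of values, in gin2 over the genes also listed for Ler, which are the genes tested there. On them edgeR called 920 genes higher and 883 lower with ACC at 2 h, 1564 and 1909 at 4 h, 6661 and 6766 in tor, and 4421 and 4139 in gin2. Replicate numbers are taken from the titles. Libraries of 2 groups were taken as paired where all 3 same-numbered pairs deviated together with r over 0.1. This held (r = 0.595, 0.411 and 0.382) for mock at 2 h and 4 h, whose numbers were therefore taken to pair them. In that contrast the replicate block called 0 of the 150 genes in either direction.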

Additional observations from a re-analysis of the deposited data

How the results depend on the processing

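Of the 150 genes, 125 to 150 were chosen again when 1 library was left out, 147 with median-of-ratios scaling, 134 with a pseudocount of 0.25 and 74 with a minimum mean of 20 RPM. The median glucose difference in gin2, 1.49, was 1.64 with a pseudocount of 0.25 and 1.47 to 1.55 without 1 library. With only the 250 bases before the start, the telo box was in 9 promoters rather than 21. With ACC at 2 h, 5 members were higher both with only the groups compared and with no filter, and with a 2-fold minimum 1 was higher and 2 lower. Leaving out 1 library gave 6 to 9 higher and 14 to 23 lower. At 4 h, 1 was higher and 7 lower with a 2-fold minimum, and without 1 library 11 to 20 were higher and 26 to 41 lower. The count of 11 came without mock replicate 3 or ACC replicate 3. The difference between the ACC changes gave 0 to 3 lower members without 1 library, with 3 without ACC 2 h replicate 3. Mock time gave 1 higher member with DESeq2 and 0 to 1 without 1 library. For tor against Col-0, a 2-fold minimum left 12 higher and 12 lower, edgeR called 40 higher and 73 lower, DESeq2 41 and 75, and without 1 library 47 to 53 were higher and 46 to 61 lower. For gin2 against Ler, median-of-ratios scaling gave 9 higher and 82 lower, edgeR 9 and 83, DESeq2 8 and 80, a 2-fold minimum 1 higher and 0 lower, and leaving out both Ler libraries numbered 3 gave 43 and 23. The causes of these changes were not tested. With a replicate block, 54 members were higher and 17 lower in gin2 and 51 higher and 55 lower in tor. Of the called members it kept 25 of 27 for ACC at 2 h and 54 of 54 at 4 h, and in these contrasts the numbers did not meet the limit for pairing. Protein features were not run. Over called members and alternatives together, 4236 values kept direction and threshold, 416 kept direction only, and 69 changed sign, all in gin2 against Ler, 22 with median-of-ratios scaling, 23 with edgeR and 24 with DESeq2.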
